A study of Rattus norvegicus with 6 samples.

Results

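rno-miR-192, rno-miR-194 and rno-miR-215 (below without the rat prefix) are 3 of the 677 rat microRNAs (miRNAs, short RNAs that repress messenger RNAs) on a 1-colour Agilent array hybridised with plasma RNA. They were chosen by name as the guide strands of 2 small gene clusters, by a rule that uses no measured value, though with earlier results of these data known. The array holds 5 names from these precursors: the 3 members and the opposite strands miR-192* and miR-194*. Plasma came from 6 male Wistar rats, 1 array per rat, 24 h after an injection into the peritoneum. The vehicle group (3 rats) received 0.9% saline, and the thioacetamide group (3 rats) received 100 mg/kg of the liver toxicant thioacetamide in the same saline. The comparison asks which plasma miRNAs differ after this liver injury. Plasma holds RNA from many tissues, so a signal does not name the tissue that released it, and the tissue was not tested here.

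Both clusters place a copy of the miR-194 hairpin beside a second hairpin, that of miR-192 in one cluster and that of miR-215 in the other. The transcripts are made mainly in liver, intestine and kidney epithelium, and p53 can raise them. A hairpin is cut into 2 arms, of which the guide strand is loaded into Argonaute and the other strand (marked with a star in the array's names) is mostly degraded. A guide finds its targets mainly through its seed, bases 2 to 8, so miRNAs with 1 seed share many predicted targets.

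The mature sequences (RefSeq, assembly GRCr8, 5′ to 3′, seed in capitals) show which members can act on the same targets. All 3 members matched an entry.
rno-miR-192-5p: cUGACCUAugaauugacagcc
rno-miR-215: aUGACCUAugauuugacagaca
rno-miR-194-5p: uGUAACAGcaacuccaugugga
rno-miR-192-3p, named miR-192* on the array: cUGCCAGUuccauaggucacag
rno-miR-194-3p, named miR-194* on the array: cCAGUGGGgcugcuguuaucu
miR-192 and miR-215 share the seed UGACCUA, which no other of the 724 mature entries carries. Over the 21 positions that both have, counted from 1 at the 5′ end, 18 are the same and 3 differ (C1A, A12U and C20A, with the base of miR-192 first). miR-194 has its own seed, GUAACAG, carried by no other mature name, and it has the same base as miR-192 at 5 of 21 positions.

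The 4 hairpins (RefSeq, GRCr8, plus strand, annotated mature arms in capitals) show that miR-194-5p is identical in both copies, so plasma miR-194 cannot be assigned to a cluster.
Mir194-2, chr1:212994024-212994108: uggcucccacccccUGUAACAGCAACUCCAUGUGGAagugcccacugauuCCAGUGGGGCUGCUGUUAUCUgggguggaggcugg
Mir192, chr1:212994209-212994318: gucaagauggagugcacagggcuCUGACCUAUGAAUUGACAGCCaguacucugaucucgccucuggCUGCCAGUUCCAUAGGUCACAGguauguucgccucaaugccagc
Mir194-1, chr13:99382716-99382798: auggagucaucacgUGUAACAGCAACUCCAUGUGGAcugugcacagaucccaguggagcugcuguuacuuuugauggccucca
Mir215, chr13:99382990-99383086: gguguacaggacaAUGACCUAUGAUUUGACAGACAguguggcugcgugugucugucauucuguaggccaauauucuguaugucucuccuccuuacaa
On chromosome 1, 100 bases separate the hairpins Mir194-2 and Mir192, and the pair spans 295 bases. On chromosome 13, 191 bases separate Mir194-1 and Mir215, and the pair spans 371 bases. The miR-194-3p arm is annotated in Mir194-2 alone.

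**Figure D1:**
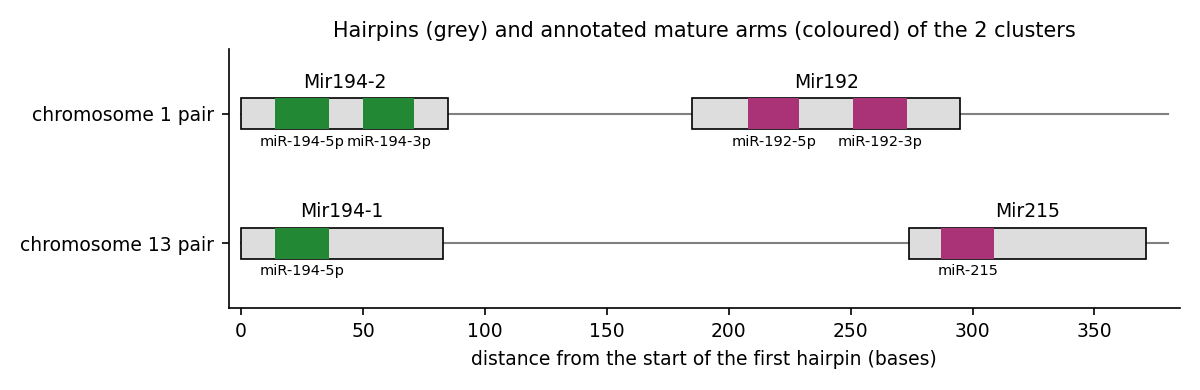
Map of the 2 clusters, with the distance in bases from the start of the first hairpin on the horizontal axis; grey boxes are hairpins, green boxes arms of miR-194 and purple boxes arms of miR-192 or miR-215. The hairpins of the chromosome 1 pair are 100 bases apart and those of the chromosome 13 pair 191 bases apart.

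Each member was read by 2 probes of 10 spots each. The probes, from the scanner files, pair with the 3′ part of the miRNA. The probes of a pair differ by the 1 base in capitals, which lengthens the probe at its 3′ end.
miR-192, shorter probe: ggctgtcaattcataggt
miR-192, longer probe: ggctgtcaattcataggtC
miR-194, shorter probe: tccacatggagttgc
miR-194, longer probe: tccacatggagttgcT
miR-215, shorter probe: tgtctgtcaaatcatagg
miR-215, longer probe: tgtctgtcaaatcataggT
The miR-192 probes pair with bases 4 to 21 and 3 to 21 of their target, so they cover 2 of the 3 positions at which miR-215 differs, and each has 2 mismatches to miR-215. The miR-215 probes have 3 mismatches to miR-192, an overhang past its end included. Signal that one of these miRNAs gives on the other's probes was not tested. The scanner files place the longer miR-192 probe at chr1:209040282-209040299 and the longer miR-215 probe at chr13:101312705-101312722 in build rn4, with spans as the files give them. They place the longer miR-194 probe at 2 loci, chr1:209040091-209040106 and chr13:101312467-101312482. The longer miR-194* probe lies at chr1:209040127-209040141 and matches the Mir194-2 hairpin alone exactly. Signal that the Mir194-1 copy might give on it was not tested.

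The 6 arrays differed in background, and every value below has to be read against it. A miRNA was called detected on an array where over 50% of the spots of any of its probes were well above background in the scanner software's own call. This held for 62, 27 and 16 miRNAs on vehicle 1 to 3 and for 22, 69 and 83 on thioacetamide 1 to 3. The lowest probe so called had a scaled signal of 20.9 on vehicle 1, 175 on vehicle 2, 245 on vehicle 3, 196 on thioacetamide 1, 54.3 on thioacetamide 2 and 37.2 on thioacetamide 3. The arrays with high limits (vehicle 2, vehicle 3 and thioacetamide 1) lay in slide columns 1 and 2, and the other 3 in columns 3 and 4. Each side of the slide thus held arrays of both groups. Of the 677 miRNAs, 99 (14.6%) were detected on at least 1 array.

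miR-192 rose strongly after thioacetamide, while miR-194 was detected on none of the 6 arrays and miR-215 on 1, vehicle 1. miR-192 was detected on vehicle 1 and on all 3 thioacetamide arrays. Of all 677 miRNAs, 9 (1.33%) were detected on every thioacetamide array and on at most 1 vehicle array, and miR-192 is 1 of them.

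The signal of miR-192, summed over its probes and divided by an array scale factor, was 95.0 on vehicle 1, 156 on vehicle 2 and 168 on vehicle 3. It was 1588 on thioacetamide 1, 3460 on thioacetamide 2 and 3001 on thioacetamide 3. The lowest treated array was well above the highest vehicle array. On vehicle 2 and vehicle 3 none of the miRNA's spots was well above background, although 38 of their 39 spots used were above the local background in the software's significance call. Vehicle 1 had the lowest signal of the 3, yet all 19 of its spots used were well above background. The vehicle level is therefore measured on 1 array and lies under the detection limit on the other 2. With each probe on those 2 arrays set to that limit, miR-192 was at least 10.0-fold higher after thioacetamide.

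On the log2 scale miR-192 went from 7.08 ± 0.45 to 11.31 ± 0.60 (SD, n = 3 per group). The change was 18.8-fold, with a 95% interval of 8.71 to 40.6-fold (log2 change 4.23 ± 0.46, SE; limma with Benjamini-Hochberg adjustment over the 59 miRNAs detected on at least 3 arrays, adjusted p = 0.00107). The values on vehicle 2 and vehicle 3 lay under those arrays' detection limits. The vehicle SD, the interval and the p-value therefore carry array background and are no measured spread between vehicle rats alone. miR-192 met the filter of 3 arrays only through the thioacetamide arrays. It was the third largest change among the 59, of which 9 (15.3%) rose and 1 (1.69%) fell. With no filter on detection, 267 miRNAs could be fitted, of which 7 (2.62%) rose, miR-192 among them (limma adjusted p = 0.00609), and 2 (0.749%) fell. Values of the groups did not overlap, which was so, in the higher direction, for 16 of the 59 (27.1%). The RNA came from equal plasma volumes, and with no scaling the sums were 88.9, 121 and 105 on vehicle 1 to 3 against 3611, 2682 and 3747 on thioacetamide 1 to 3. The unscaled log2 change was 4.99 (limma adjusted p = 5.66e-05).

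Both probes of miR-192 moved the same way, and the longer one by more. The shorter probe gave 26.5, 64.8 and 68.2 on vehicle 1 to 3 and 432, 868 and 730 on thioacetamide 1 to 3, a ratio of geometric means of 13.3. The longer probe gave 68.5, 91.2 and 99.4 against 1157, 2592 and 2271, a ratio of 22.2. Neither probe's groups overlapped. The spread between spots of 1 probe was small beside this difference. Before scaling, the longer probe had a mean of 2009 with an SD of 129 over 9 spots on thioacetamide 2, and a mean of 64.1 with an SD of 3.94 over 9 spots on vehicle 1.

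**Figure D2:**
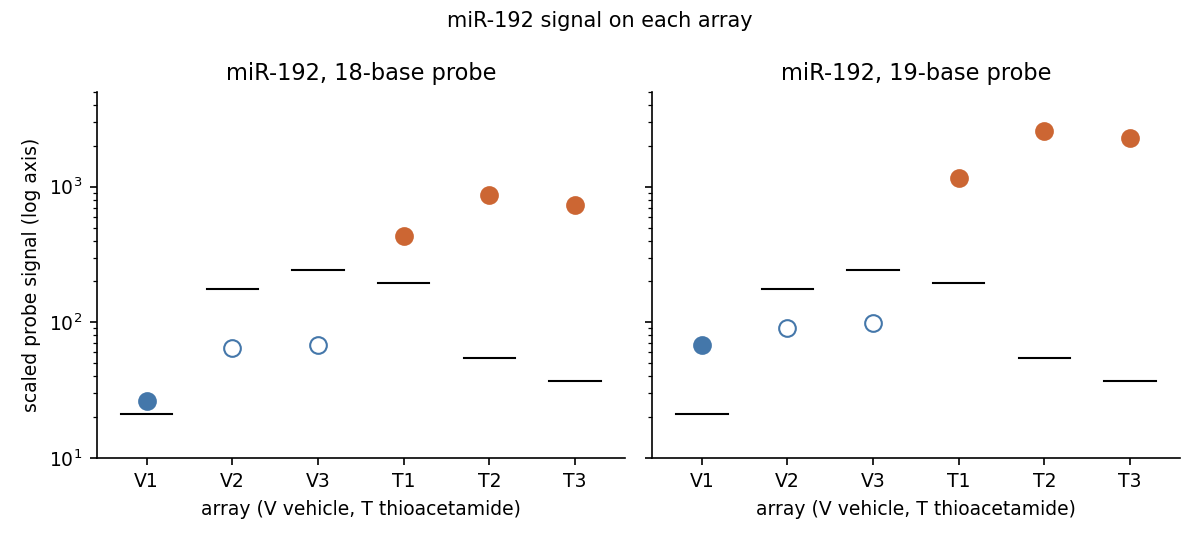
Scaled signal of the 2 miR-192 probes on each array (log axis; blue vehicle, orange thioacetamide). Filled points were detected, open points were not, and the black bar is the lowest scaled signal of any probe detected on that array. The treated points lie above their bars, between 432 and 868 for the 18-base probe and between 1157 and 2592 for the 19-base probe, while vehicle 2 and vehicle 3 lie below theirs.

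The ratio differed between the sides of the slide, each of which holds a group of 1 array, so slide side cannot be told apart from single rats. In columns 3 and 4, where the background was low, miR-192 was 33.9-fold higher on thioacetamide 2 and 3 than on vehicle 1 (log2 change 5.08). In columns 1 and 2, where neither vehicle array detected it, it was at least 3.84-fold higher on thioacetamide 1 than the limits of vehicle 2 and 3. The measured log2 change there was 3.30 (limma adjusted p = 0.0508 when those 3 arrays were fitted alone). With slide side as a block the log2 change was 4.19 (limma adjusted p = 0.00123). The part of the background in this difference was not tested. The scanner software's own total signal per miRNA was 59.0 on vehicle 1 and 2397, 1780 and 2487 on thioacetamide 1 to 3. On vehicle 2 and 3 it was 0.1, the value written for every miRNA the software did not call.

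miR-194, which shares a cluster with each of the other members, stayed near background on every array. Its summed scaled signal was 1.94, 9.73 and 6.58 on vehicle 1 to 3 and 17.7, 12.6 and 13.1 on thioacetamide 1 to 3. All 6 values lie under the floor of 46.1 that was set before taking log2, so no log2 change could be measured and no fold is given. The 3 treated sums nonetheless lay above the 3 vehicle sums (14.5 ± 2.79 against 6.08 ± 3.92, SD; difference 8.40; exact two-sided permutation p = 0.1, the smallest that 3 against 3 can give). Adjusted over the 5 names tested in this way, the exact permutation p was 0.25. Of the 578 miRNAs detected on no array, 3 (0.519%) had treated sums that all lay above the vehicle sums, miR-194 among them, and as many, 3 (0.519%), had sums that all lay below. Without scaling 5 (0.865%) lay above, miR-194 included, and 1 (0.173%) below. The miR-194 groups overlapped when the scale factor was a median over the 8 always-detected miRNAs, and also under the normexp background model.

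The 2 miR-194 probes disagreed. Before scaling, the longer probe gave 1.01, 4.50 and 1.95 on vehicle 1 to 3 and 18.4, 10.2 and 14.2 on thioacetamide 1 to 3. The shorter probe gave 0.805, 3.05 and 2.17 against 21.9, -0.434 and 2.12. Groups separated on the longer probe and overlapped on the shorter. On the arrays of low background, 9 of 10 spots of the longer probe were above the local background in the significance call on thioacetamide 2, 9 of 10 on thioacetamide 3 and 1 of 10 on vehicle 1, while none of the shorter probe's spots was on any of the 3. On thioacetamide 1 the spots of both probes scattered widely (SD 19.9 and 18.9), and none passed that call.

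miR-215, with the seed of miR-192, showed no rise that this array could measure. Its summed scaled signal was 41.7, 10.7 and 20.0 on vehicle 1 to 3 and 5.79, 19.5 and 25.8 on thioacetamide 1 to 3. The highest value was a vehicle array, and the groups overlapped (24.1 ± 15.9 against 17.0 ± 10.2, SD; difference -7.11; exact permutation p = 0.6). Without scaling the difference was 0.207 (exact permutation p = 1), so its sign turned with the scaling. Every value was under the floor, so no log2 change could be measured. The signal came from the longer probe, with 35.1, 10.3 and 14.4 before scaling on vehicle 1 to 3 and 20.5, 14.0 and 28.7 on thioacetamide 1 to 3. Within columns 3 and 4 all spots used of that probe were above the local background in the significance call, in both groups, and vehicle 1 alone had them well above background. The difference in scaled sum, thioacetamide minus vehicle, was -19.1 in columns 3 and 4 and -9.56 in columns 1 and 2.

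The opposite strands gave no measured change either. miR-192* was detected on no array. Its scaled sums were -2.97, -28.4 and -34.5 on vehicle 1 to 3 and -15.3, 14.5 and 16.9 on thioacetamide 1 to 3 (difference 27.4, exact permutation p = 0.2), with values below 0 where the spot was dimmer than its background. The 2 positive values are those of the treated arrays in columns 3 and 4, where 7 of 10 and 8 of 9 spots of the longer probe passed the significance call against 0 of 9 on vehicle 1.

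miR-194*, whose probes match the chromosome 1 copy alone exactly, was detected on thioacetamide 3 alone. Its scaled sums were 8.62, 66.9 and 71.8 on vehicle 1 to 3 and 51.1, 16.0 and 72.3 on thioacetamide 1 to 3. The groups overlapped (difference -2.61, exact permutation p = 1). Without scaling the sums were 35.0 ± 23.5 on vehicle and 73.0 ± 54.1 on thioacetamide arrays (SD, n = 3), which also overlapped, with a difference of the other sign (38.0, exact permutation p = 0.3). The longer probe carried the detection, with 10 of 10 spots well above background and a mean of 71.7 ± 8.96 (SD of spots) before scaling on thioacetamide 3. On thioacetamide 2, of the same group and slide side, it gave 10.2 with 0 of 10.

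**Figure D3:**
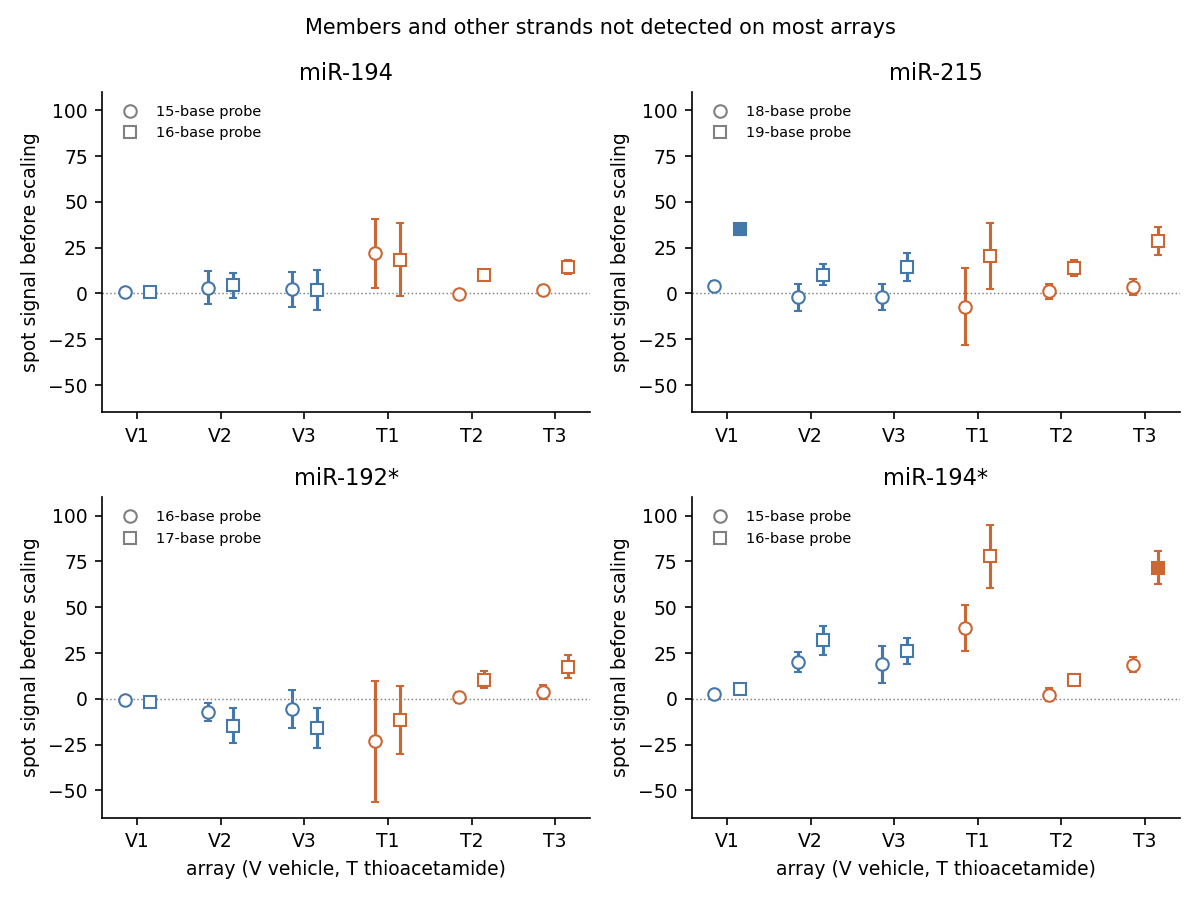
Spot signal before scaling for miR-194, miR-215, miR-192* and miR-194*, by array (blue vehicle, orange thioacetamide); circles are the shorter and squares the longer probe, bars are the SD between spots, and filled symbols were detected. Detection was limited to miR-215 on vehicle 1 and miR-194* on thioacetamide 3, and bars were widest on thioacetamide 1.

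Members read by different probes cannot be ranked by signal, since a probe's length and base content set its brightness. The miR-194 probes have 15 and 16 bases, and the miR-192 and miR-215 probes 18 and 19. That miR-192 was detected and miR-194 was not therefore does not show their relative amounts in plasma. The comparison across arrays is by miRNA alone: both probes of miR-192 separated the groups, 1 of the 2 miR-194 probes did so near background, and no probe of miR-215, miR-192* or miR-194* did. Over all 1644 miRNA probes of the array, 55 (3.35%) had scaled signals that lay higher on every thioacetamide than on any vehicle array.

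The measured change of miR-192 was smaller than those of miR-122 and miR-22, 2 miRNAs also detected on vehicle 1 and on no other vehicle array. miR-122 is the most abundant miRNA of hepatocytes, and miR-22 is found at high levels in liver but also elsewhere. The within-array log2 difference of miR-192 from miR-122 was 0.28, 1.28 and 1.86 on vehicle 1 to 3 and -2.16, -2.72 and -3.29 on thioacetamide 1 to 3, so the change of miR-192 was smaller by 3.87 (exact permutation p = 0.1, the smallest possible). miR-122 lay under the floor on vehicle 3, so this gap moves with the floor: raising it by 4 times gave -2.73, and lowering it to 0.25 of its value gave -4.53. The difference from miR-22 was -1.11, 0.59 and 0.83 against -1.28, -1.55 and -1.55, a gap of -1.56 (exact permutation p = 0.1). These gaps rest on vehicle 2 and 3, where all 3 miRNAs lay under the detection limit. Against vehicle 1 alone the gap was -3.00 to miR-122 and -0.35 to miR-22. Within columns 3 and 4 the gap to miR-22 was -0.44, and within columns 1 and 2 it was -1.99.

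The miRNAs whose values over the 6 arrays lay nearest to those of miR-192 were found by the root mean square difference of log2 signals, each centred on its own mean. They were miR-122*, the opposite strand of miR-122, at 0.73, miR-21, present in most tissues and often raised by injury, at 0.77, miR-30a at 0.81, miR-30d at 0.86 and miR-188 at 0.93. Their log2 changes were 2.81, 3.22, 2.75, 2.54 and 3.27. The first 4 passed the limma threshold, and miR-188 did not (adjusted p = 0.0546). miR-122*, miR-21 and miR-30a were detected on all 3 thioacetamide arrays and met the filter of 3 arrays there alone, so their calls are not independent of it. miR-122* was detected on no vehicle array, and miR-21 and miR-30a on 1. miR-30d and miR-188 were detected on 1 vehicle and 2 thioacetamide arrays. These 5 are also the next 5 below miR-192 when the tested miRNAs are ordered by change.

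**Figure D4:**
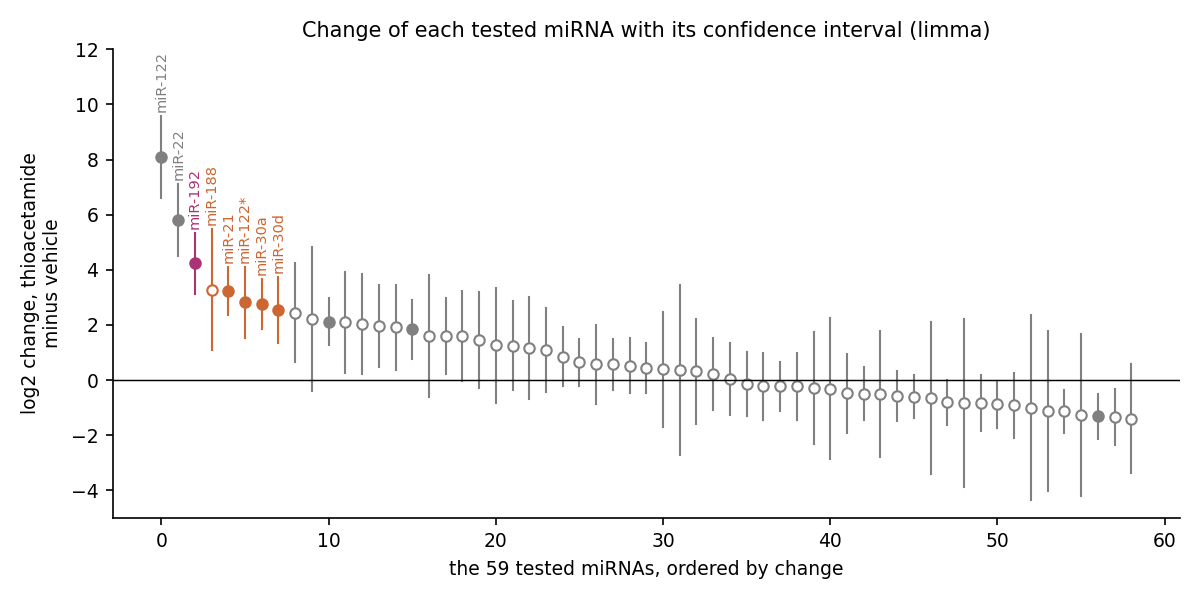
Log2 change of each of the 59 tested miRNAs with its 95% interval, ordered by size; filled points passed the limma threshold. miR-192 (purple, 4.23) follows miR-122 and miR-22, and the 5 miRNAs with the nearest array values (orange) are the next 5, between 2.54 and 3.27.

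Lists of other miRNAs known from the tissues and cells that could supply these clusters gave the following. Of 12 miRNAs known from liver, 7 were detected on some array (99 of all 677, 14.6%) and 4 were tested. miR-122, miR-122* and miR-22 passed as higher and 0 as lower, while miR-193 missed the threshold (log2 change 1.59, limma adjusted p = 0.103). Over all 59 tested, 9 (15.3%) passed as higher and 1 (1.69%) as lower. miR-122* and miR-193 were not well above background on any vehicle array, so their level there is a bound. Against the detection limits miR-122* was at least 2.76-fold higher and miR-193 at least 1.50-fold. All 4 met the filter on the thioacetamide arrays alone, so these calls and the list's median of 4.31 (0.45 over all 59 tested) are a description and support nothing. miR-101b, miR-365 and miR-378 were detected on thioacetamide 2 and 3 and on no other array. The other 5 (miR-101a, miR-148b-3p, miR-33, miR-455 and miR-802) were detected on no array.

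Of 12 miRNAs known from gut and kidney epithelium, 0 were tested and 3 were detected on any array, all after thioacetamide. Of all 677 miRNAs, 99 (14.6%) were detected on some array, 71 on a vehicle and 87 on a thioacetamide array. Thioacetamide 2 and 3 detected 69 and 83 miRNAs, against 62, 27 and 16 on vehicle 1 to 3. miR-200b and miR-429 were detected on thioacetamide 2 and 3, and miR-200a on thioacetamide 3. These 3 come from 1 cluster and are typical of epithelial cells. The scaled sums of miR-200a were 4.00, 6.61 and 4.64 on vehicle 1 to 3 and 62.5, 65.9 and 58.6 on thioacetamide 1 to 3, without overlap. Log2 values of 16 of the 59 tested miRNAs (27.1%) were likewise higher without overlap, and miR-200a was not tested. It was not detected on thioacetamide 1, where the lowest detected probe had 196, or on thioacetamide 2. miR-200b and miR-429 overlapped between groups, with 6.93 to 84.4 and 10.3 to 121 on vehicle arrays against 83.9 to 104 and 88.2 to 115 on thioacetamide arrays. Summed over the list, the scaled signal was 66.4 to 277 on vehicle and 351 to 391 on thioacetamide arrays. Part of it came from miRNAs detected on no array, such as miR-10a-5p (189, 248 and 187 on vehicle 2, vehicle 3 and thioacetamide 1). On thioacetamide 1 to 3 the sum was 358, 351 and 391, and miR-192 gave 1588, 3460 and 3001. The liver list summed to 68.7 to 353 on vehicle arrays and to 11700, 34694 and 39636 on thioacetamide 1 to 3. Neither list had the array order of miR-192. The part of either list's tissue in the result was not tested. miR-10a-5p, miR-10b, miR-141, miR-196a, miR-196b, miR-200c, miR-203, miR-31 and miR-375 were detected on no array.

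Of all 59 tested miRNAs, 9 (15.3%) rose and 1 (1.69%) fell, the shares beside which the counts of the next 3 lists stand. Of 7 miRNAs known to respond to p53, 2 were tested and 0 passed, too few to differ from those shares. They were miR-16 (log2 change -1.13, limma adjusted p = 0.0585) and miR-107 (0.52, adjusted p = 0.395), with a median of -0.30. miR-34a, a direct target of p53, was detected on no array, as were miR-34b, miR-34c, miR-143 and miR-145. Values of the erythrocyte miRNAs turned with the scaling. Of 8 erythrocyte miRNAs on the array 7 were tested, 0 rose, miR-451 fell (log2 change -1.31, limma adjusted p = 0.0427) and 6 did not pass, with a median of -0.81 and a summed scaled signal of 10673 to 13736 on vehicle and 6313 to 6596 on thioacetamide arrays. miR-16 is in both lists. The scale factors rest on 8 miRNAs, of which 4 are erythrocyte miRNAs (miR-16, miR-25, miR-92a and miR-451). Without scaling the erythrocyte sums were 12854, 10356 and 6680 on vehicle 1 to 3 and 14352, 5113 and 7929 on thioacetamide 1 to 3, which overlapped. miR-451 then did not pass (log2 change -0.56, limma adjusted p = 0.598), 1 of the 7 was higher and 0 lower, and the median was -0.06. With spike-in scaling 1 was likewise higher and 0 lower, with a median of 0.06. The change of miR-192 was larger under both scalings. Of 6 leukocyte miRNAs on the array 3 were tested and 0 passed (median -0.48), again too few to differ from the shares over all 59. Their summed scaled signal was 393 to 636 on vehicle and 329 to 523 on thioacetamide arrays. The leukocyte list was not computed under other scalings.

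The rise of miR-192 had the same direction under all 25 alternatives and passed the limma threshold in 24. Its log2 change ran from 3.04 with normexp to 5.10 with scaling to the labelling spike-ins. The exception was the fit to columns 1 and 2 alone, with 1 treated array. The fit to columns 3 and 4 alone, counted among the 24, has 1 vehicle array. Neither fit measures the spread between rats in its group of 1 array. Leaving out 1 rat gave 3.61, without vehicle 3, to 4.33, without vehicle 2.

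**Figure D5:**
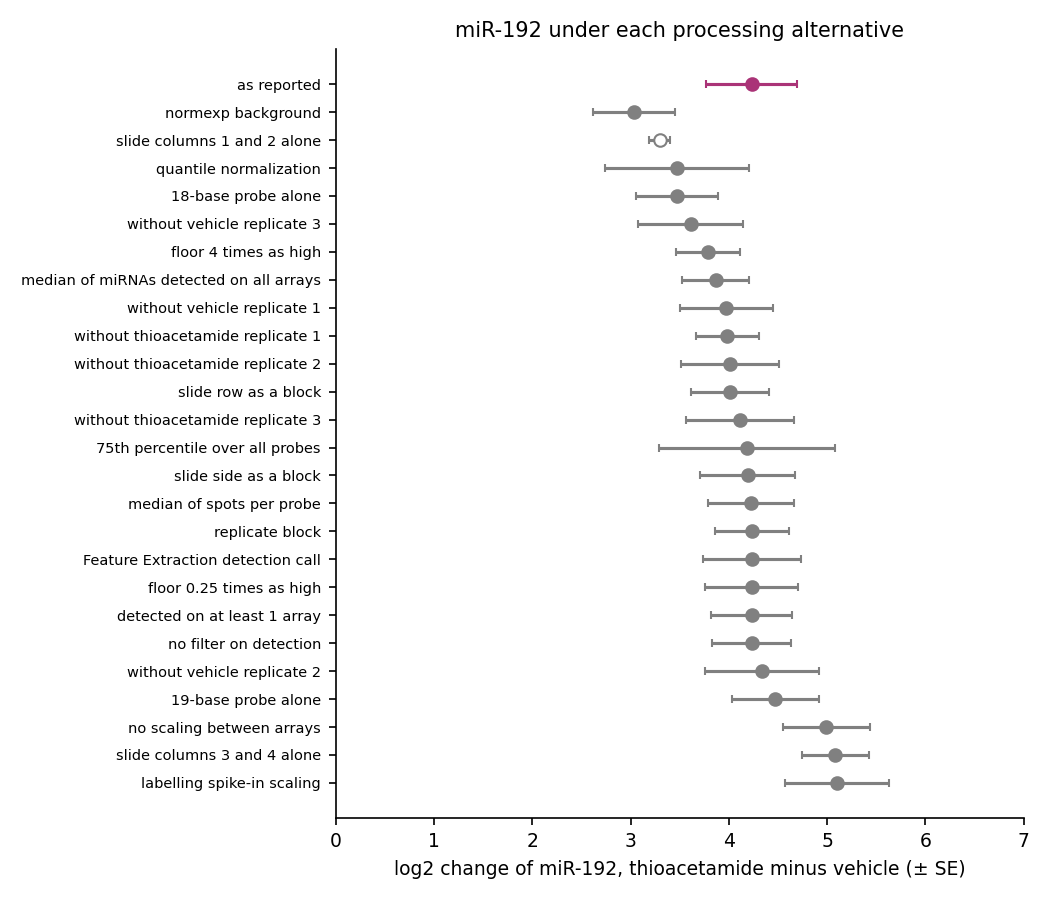
Log2 change of miR-192 (± SE) as reported (purple) and under each of 25 alternatives (grey), ordered by size; the open point did not pass the limma threshold. All values lie between 3.04 and 5.10.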

How the data were processed

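The authors deposited 1 scanner file per rat with linear, background-subtracted intensity values for each spot. The submitters' processing notes name Agilent Feature Extraction, version 10.7.3.1. The deposited value matrix holds the same intensity values to within 0.005, linear, uncentred and unscaled; column medians were 0.99, 0.20 and -2.95 (vehicle 1 to 3), then 0.73, 0.60 and 2.76 (thioacetamide 1 to 3). The rats have their own body weights in the labels, so arrays were taken as separate animals, and p-values measure the spread between them.

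Each array had 13540 miRNA spots. Control spots, and 2126 outlier-marked spots over the 6 arrays, were left out, and no miRNA spot was saturated. Unmarked spots were averaged per probe and probes summed per miRNA. The multiple behind the well-above-background call is 13 in the file headers. Each array was divided by its 75th percentile over the 12 probes (8 miRNAs) detected on all arrays, floored at 46.1 (5th percentile of detected sums) and log2 transformed. limma 3.58.1 in R 4.3.3 (lmFit, eBayes; treatment alone) was fitted to the 59 miRNAs detected on at least 3 arrays, with Benjamini-Hochberg adjustment and a threshold of 0.05. Linear sums of the dim names were compared by exact permutation, a step added after their values were seen, as were the count of undetected miRNAs with separated groups, the lower bounds from detection limits, the gaps against vehicle 1 alone and the rescaled erythrocyte list. The number of arrays limits the precision.

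Named are the members, the other strands of their precursors, the 5 miRNAs nearest to miR-192, detected members of the liver, gut and kidney epithelium, p53-responsive, erythrocyte and leukocyte lists, and miR-122 and miR-22; undetected list members were added after their values were seen. The members and lists were chosen with earlier results of these data known. Alternatives covered scaling, background, floor, filter, detection call, spot summary, slide side and row, replicate number, single probes and each rat left out. The scripts were tested on simulated data.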

Additional observations from a re-analysis of the deposited data

How the results depend on the processing

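miR-192 failed the limma threshold in 1 alternative, slide columns 1 and 2 alone (log2 change 3.30, adjusted p = 0.0508), and could not be tested over miRNAs detected on all 6 arrays. Leaving out 1 rat gave 3.61 to 4.33. The log2 change of miR-194, 0 at the floor, was 0.0212 with spike-in scaling, -0.36 with normexp and 0.31 with a floor 0.25 times as high. That of miR-215 was -0.14 with the percentile over all probes, -0.0478 with median scaling over always-detected miRNAs, -0.40 with normexp, -0.24 with the lower floor and -0.14 with Feature Extraction's detection call, and -0.13 to 0 with 1 rat left out. A change other than 0 means that some value lay above the floor of that setting. Causes beyond that were not tested. The fit without a filter held 267 miRNAs, as the rest were at the floor on every array, miR-194 and miR-215 among them.

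The 9 miRNAs called higher became 3 with the all-probe percentile, 22 unscaled, 21 scaled to spike-ins, 5 after quantile normalization, 5 with normexp, 0 in columns 1 and 2 alone, 33 in columns 3 and 4 alone and 0 over miRNAs detected on all arrays. The 1 called lower became 0 with the all-probe percentile, unscaled, scaled to spike-ins, with the lower floor, the replicate block and Feature Extraction's call (87 tested). It became 2 with quantile normalization, slide side as a block and the median of spots. It was also 2 with no filter (267 tested), detection on at least 1 array (96) and detection on all arrays (8). With the median of detected miRNAs and with a floor 4 times as high it became 4. Leaving out 1 rat gave 6 to 18 higher, the 18 without thioacetamide 1, and 0 to 7 lower, the 7 without thioacetamide 1 and 6 without vehicle 3. The number tested changed as well, so these counts cannot be set directly against 9 of 59. It was 32, 54 and 54 without vehicle 1 to 3, and 53, 30 and 29 without thioacetamide 1 to 3. The causes of these shifts were not tested either.

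Whether the replicate numbers pair the rats could not be decided. Deviations of same-numbered arrays from their group means correlated at -0.70, -0.31 and -0.66 over the 59 miRNAs. Each vehicle array correlated more with a thioacetamide array of another number. Same-numbered arrays, however, always lay on opposite sides of the slide, which differed in background, so these correlations cannot separate pairing from slide side. With the replicate block miR-192 had a log2 change of 4.23 (limma adjusted p = 0.00982), and 10 miRNAs were higher and 0 lower. Over the alternatives, the gap to miR-122 ran from -2.73 to -4.53 and that to miR-22 from -0.44 to -2.17, with the same direction throughout. Against vehicle 1 alone, which is not among the alternatives, the gaps were -3.00 and -0.35.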
